A study of Homo sapiens with 9 samples.

Results

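Oxidative phosphorylation was followed through 105 genes of its 5 complexes, among the 58734 genes of the count table (19951 protein-coding). Of these, 92 are nuclear genes and 13 are the protein-coding genes of mitochondrial DNA. Members were chosen by symbol. The nuclear set holds protein-coding genes whose GENCODE 29 symbols start with NDUFA, NDUFB, NDUFC, NDUFS or NDUFV (assembly factors named NDUFAF left out), UQCR, COX4 to COX8 or ATP5, together with the succinate dehydrogenase genes SDHA to SDHD and CYC1. The mitochondrial set holds the 13 genes named MT- that encode proteins.

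The series compared HEK293T cells, an established human embryonic kidney line that carries adenoviral genes and SV40 large T antigen, after transfection with control siRNA, SIN3A siRNA or SIN3B siRNA. Each siRNA was used at 10 nM for 36 h, and each group had 3 RNA-seq libraries, 9 in all. SIN3A and SIN3B are paralogous scaffolds of histone deacetylase complexes. Titles and source names gave the groups, since the treatment text names control siRNA for all 9. Whether replicates were transfected separately is not stated, so the p-values rest on spread between libraries that may be technical only.

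Complexes I to IV of the inner mitochondrial membrane pass electrons from NADH and succinate to oxygen. Of these, complexes I, III and IV pump protons, and complex V uses the proton gradient to make ATP. Complexes I, III, IV and V combine subunits from nuclear genes, whose proteins are imported, with subunits translated inside the organelle from polycistronic mitochondrial transcripts. Complex II is encoded in the nucleus alone. NRF1, ETS factors such as GABP, and YY1 are known regulators of many nuclear members, and TFAM and POLRMT act in transcription of mitochondrial DNA.

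Library totals ran from 22542798 to 27084884 counts. After filtering, 16686 genes were tested with edgeR's quasi-likelihood test, and "called" means a Benjamini-Hochberg adjusted p under 0.05 over all of them. Levels are CPM, each library's counts divided by its effective size, adjusted by TMM factors, given as mean ± SD of 3 libraries, and log2 fold changes are fitted values with their SE. The targets matched the labels: SIN3A stood at 141, 147 and 149 CPM in control and at 44.9, 49.9 and 47.0 in SIN3A knockdown, and SIN3B at 100, 97.1 and 91.1 CPM in control and at 59.2, 53.8 and 52.3 in SIN3B knockdown. SIN3A fell by 1.62 ± 0.07 on the log2 scale (edgeR adjusted p = 2.22e-11) and SIN3B by 0.80 ± 0.09 (edgeR adjusted p = 2.25e-06). All 7 markers of HEK293-type cells had counts, with PAX2 the lowest at 4.12 CPM in control. PTPRC, HBB, COL1A2, SFTPC and MYH7 had no count, and ALB, APOA1 and CKM stayed at or under 0.60 CPM in each group's mean. Of the 7 HEK293-type markers, 3 were called lower and 0 higher in each knockdown (42.9%, beside 23.0% and 23.6% of all genes tested called in either direction). The neuronal filament markers NEFM and INA were called lower in both knockdowns.

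SIN3A knockdown replicate 1 stood apart from the other libraries in this gene group. It was the highest of the 9 libraries for 56 of 84 tested nuclear members (66.7%), against 15.8% of all genes tested. Relative to SIN3A knockdown replicates 2 and 3, its median log2 difference was 0.31 for transcripts of at most 1000 bases, 0.16 from there to 2000 bases, 0.01 to 4000 bases and -0.10 beyond. Nuclear members are short, with a median transcript of 1080 bases against 3171 bases for tested protein-coding genes. Among 79 nuclear members above 10 CPM, 75 were higher in this library than in the other two, by a median log2 of 0.29. The part that transcript length plays in the results on SIN3A knockdown was not tested, so the counts, and many of the named values, are given with and without this library. SIN3A values given once include it. For example, SIN3A against SIN3B knockdown gave log2 0.44 with it and 0.31 without it for NDUFB1, 0.48 and 0.37 for UQCR11, and -0.38 and -0.49 for NDUFC1.

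Promoters of the nuclear members are shown first because the regulators named above act there. RefSeq promoters (250 bases before to 50 after the gene start, GRCh38.p14) were matched for 69 of the 84 tested nuclear members. On both strands, the NRF1 motif (GCGC, any 2 bases, GCGC) was found in 17 of 69 (24.6%), against 12.0% of 15843 protein-coding promoters of the same length. Those 15843 were not limited to genes tested here, as the members were, so the shares compare unlike sets. The ETS motif CCGGAAG stood in 20 members (29%), against 14.2%. The YY1 motif AAGATGGC stood in 11 members (15.9%), against 3.91%. In 9 of these 11 the first YY1 match lay at or after the gene start, as did the first ETS match in 3 of the 20. Any of the 3 was present in 39 members (56.5%), against 26.4%. CCAAT, in 33.3% of members and 36.4% of all promoters, and TATAAA, in 8.70% and 9.63%, differed less from all promoters. Members called in either knockdown against control held any of the 3 motifs in 11 of 18 (61.1%), and those called in neither in 28 of 51 (54.9%). A match is a string of letters in this window and no measure of binding.

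The following windows are from members whose transcripts differed between groups, with 1 YY1 example from ATP5PF, a subunit of the ATP synthase stalk. That YY1 match begins 57 bases before the gene start, unlike those of the 9 members counted above. Each is read 5′ to 3′ on the gene's strand, and capitals mark the motif or its reverse complement.
NDUFB10, NRF1, chr16:1959492-1959517, plus strand: gcatcgcgGCGCCAGCGCgcagacgc
SDHD, NRF1, chr11:112086755-112086780, plus strand: ctgtgtttGCGCATGCGCgacgggtg
UQCRFS1, NRF1, chr19:29213165-29213190, minus strand: gcctcctcGCGCCTGCGCcgtggttg
UQCR11, NRF1, chr19:1605474-1605499, minus strand: ctccccgcGCGCGTGCGCgccgcggc
UQCR11, ETS, chr19:1605563-1605588, minus strand: caaccctcgCCGGAAGttactgtaag
SDHD, ETS, chr11:112086787-112086812, plus strand: gcctctcgaCTTCCGGttcacccagc
UQCRH, ETS, chr1:46303643-46303668, plus strand: tgtgccgcaCTTCCGGccagatcgcc
COX5B, ETS, chr2:97646016-97646041, plus strand: agcccgcccCCGGAAGtccctcctgt
ATP5PF, YY1, chr21:25735095-25735120, minus strand: ggcgaagaaAAGATGGCggaggctgt

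The members were among the more abundant transcripts. In control libraries the 13 mitochondrial genes had a median of 4321 CPM per kilobase of transcript, and their ranks among 13433 protein-coding genes ran from 1 to 243. MT-CO2, a copper-binding subunit of cytochrome c oxidase, was the highest of all these genes at 16245 ± 978 CPM per kilobase. Nuclear members had a median of 83.6 CPM per kilobase, against 8.03 for tested protein-coding genes. ATP5IF1, the inhibitory factor of ATP synthase, led them at 628 ± 35.4 CPM per kilobase, followed by ATP5F1B, the catalytic beta subunit, at 479 ± 9.84.

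Of the 92 nuclear members, 84 passed the filter on low counts, and all 13 mitochondrial members did. The 8 others were COX4I2, COX6A2, COX7A1, COX7B2, COX8C, NDUFC2-KCTD14 and ATP5MGL, which had no count, and the readthrough gene ATP5MF-PTCD1. Nearly all counts were multiples of 4, so the limit that a count of 0 allows was taken as 12 counts, or 0.442 to 0.552 CPM by library, for counting error only. The widely expressed forms COX4I1 (284 ± 4.62 CPM in control), COX6A1 (90.0 ± 3.44), COX7A2 (122 ± 8.93), COX7B (165 ± 3.66) and COX8A (163 ± 6.19) were counted where the heart, muscle, lung or testis forms were not. COX6B1 stood at 156 ± 9.86 CPM beside 0.883 ± 0.309 for the testis form COX6B2, and NDUFA4, now counted with complex IV, at 104 ± 4.13 beside 1.28 ± 0.525 for NDUFA4L2. NDUFA7 (0.439 ± 0.112 CPM) and NDUFV2 (0.386 ± 0.122), core or accessory complex I genes, lay near the floor, and 32.3% and 28.4% of their exon bases overlap another gene on the same strand. How the authors' counting treated such overlaps is not given in the sources used here, so these levels are uncertain.

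The sums of the nuclear and mitochondrial sets differed little between each knockdown and control. Nuclear members took 1.06%, 1.10% and 1.08% of counts in the control libraries, 1.26%, 1.08% and 1.03% in SIN3A knockdown, and 1.10%, 1.08% and 1.08% in SIN3B knockdown. SIN3A knockdown replicate 1 lay above every other library, and the other 8 overlapped across groups. Mitochondrial members took 8.77%, 9.47% and 8.57% of counts in control, 8.01%, 8.67% and 8.29% in SIN3A knockdown, and 9.12%, 9.23% and 8.70% in SIN3B knockdown. Each knockdown overlapped control, but the knockdowns did not overlap each other, with every SIN3A library below every SIN3B library (8.67% against 8.70% at the closest). The ratio of mitochondrial to nuclear counts, which does not depend on scaling, was 8.27 ± 0.352 in control, 7.47 ± 0.943 in SIN3A knockdown and 8.27 ± 0.268 in SIN3B knockdown. In SIN3A knockdown it was 6.38 in replicate 1, 8.001 in replicate 2 and 8.02 in replicate 3, so that without replicate 1 the mean was 8.01. These sums were not tested. In bulk RNA, fewer cells of one state and less RNA per cell cannot be told apart.

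**Figure D1:**
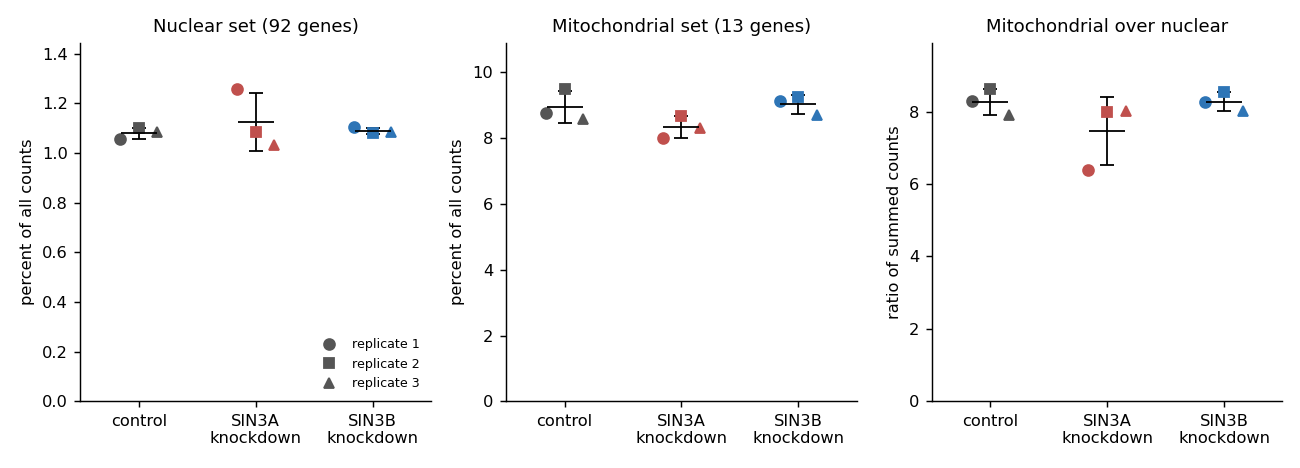
Share of all counts taken by the nuclear set and by the mitochondrial set (percent), and the ratio of their summed counts, for each library; points are libraries, bars the mean ± SD of 3. SIN3A knockdown replicate 1 is the highest point for the nuclear set (1.26%) and the lowest for the ratio (6.38).

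In SIN3A knockdown against control, 10 of 84 nuclear members were called (9 higher, 1 lower) and 1 of 13 mitochondrial members (higher), where 23.0% of all genes tested were called, 12.2% higher and 10.8% lower. The median log2 fold change was 0.08 for nuclear members, -0.07 for mitochondrial members and -0.002 for all genes tested. All 79 nuclear members above 10 CPM lay between -0.30 (CYC1) and 0.43 (COX7A2L), and 66 of them within 0.2 of 0. Without SIN3A knockdown replicate 1 the nuclear median was below 0.01 in size and 13 members were called, 5 higher and 8 lower, so that most calls were then lower, and 6 of the 13 were among the 10 called with all libraries. Without replicate 3 the median was 0.13 and 22 were called, 21 higher and 1 lower. With upper-quartile scaling, which moved the median of all genes to -0.07, the nuclear median was 0.01 and 4 members were called higher and 2 lower. Of all genes tested, 22.8% were called without replicate 1, 20.5% without replicate 3 and 22.0% with upper-quartile scaling. Among all genes called, 57.5% were higher without replicate 1, 53.6% without replicate 3 and 36.9% with upper-quartile scaling.

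In SIN3B knockdown against control, 12 of 84 nuclear members were called (9 higher, 3 lower) and 1 of 13 mitochondrial members (higher), where 23.6% of all genes tested were called, 12.0% higher and 11.6% lower. Median log2 fold changes were 0.03 for nuclear members, 0.05 for mitochondrial members and -0.02 for all genes. The nuclear members above 10 CPM ran from -0.61 (ATP5MC1) to 0.67 (NDUFA5), and 63 of 79 lay within 0.2 of 0. The fit shares 1 estimate of spread over all 9 libraries, and those of SIN3A knockdown spread most. Chi-square per degree of freedom between replicate pairs was 3.77 to 7.98 there, 1.61 to 1.93 in control and 1.46 to 2.07 in SIN3B knockdown. Without SIN3A knockdown replicate 1, 18 nuclear members were called in this comparison, where 27.5% of all genes tested were. With only its 6 libraries fitted, 26 nuclear members were called, where 33.0% of all genes tested were. Between the knockdowns, SIN3A against SIN3B, 14 nuclear members were called (10 higher, 4 lower in SIN3A knockdown) and 1 mitochondrial member (lower), where 27.1% of all genes tested were called, 14.5% higher and 12.6% lower. There the medians were 0.05 for nuclear members, -0.08 for mitochondrial members (1 of 13 positive) and -0.02 for all genes. Without SIN3A knockdown replicate 1 the nuclear count was 20, 7 higher and 13 lower, and without replicate 3 it was 30, 25 higher and 5 lower. With upper-quartile scaling it was 13, 6 higher and 7 lower. Of all genes tested, 26.9%, 27.9% and 27.5% were called in these 3 fits, with 56.1%, 52.2% and 47.0% of those calls higher. The comparisons with control share the 3 control libraries, so their values are set side by side. Leaving out 1 library at a time, the nuclear counts ranged from 5 to 22 for SIN3A knockdown, from 4 to 18 for SIN3B knockdown and from 7 to 30 between them. The share of all genes called moved as well, from 15.3% to 22.8%, from 15.5% to 27.5% and from 19.7% to 27.9%.

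**Figure D2:**
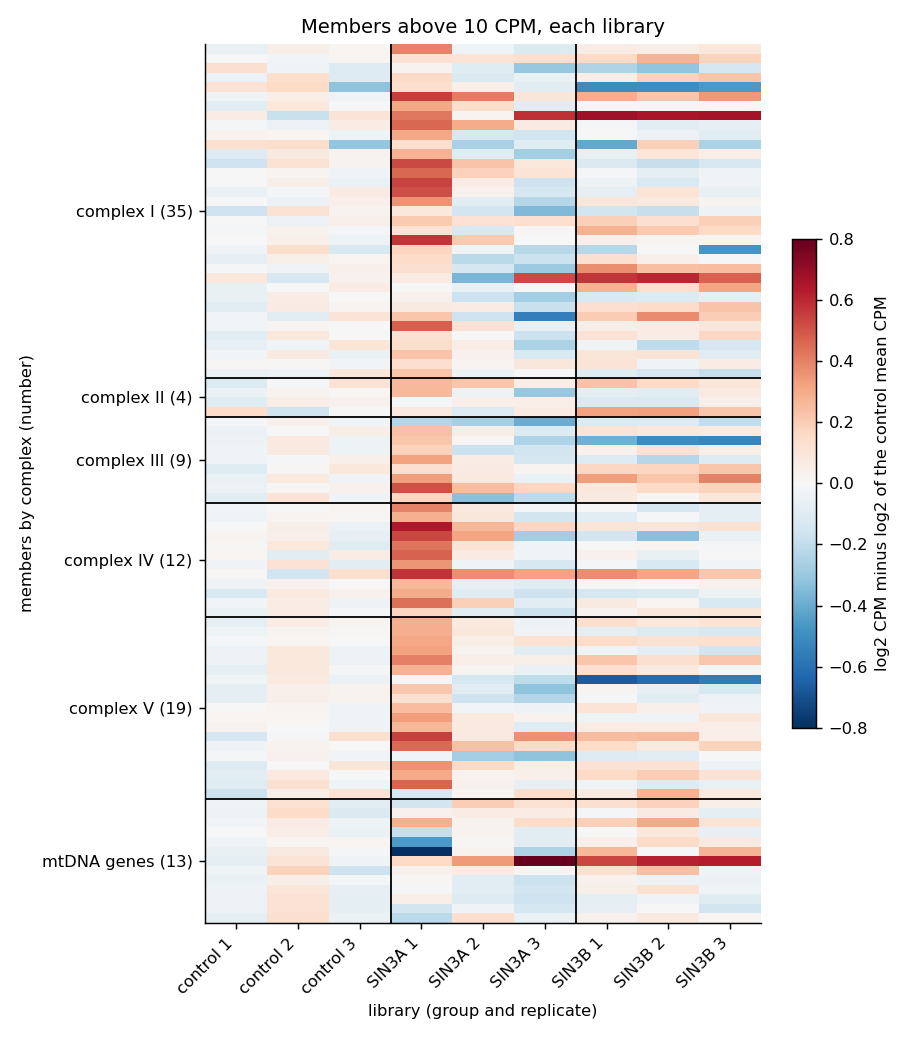
Each row is 1 of the 92 members above 10 CPM (79 nuclear by complex, 13 mitochondrial), each column a library, and the colour is log2 CPM minus log2 of the control mean, limited at 0.8 either way. In SIN3A knockdown replicate 1, 73 of 79 nuclear rows lie above the control mean, against 47 in replicate 2 and 26 in replicate 3.

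**Figure D3:**
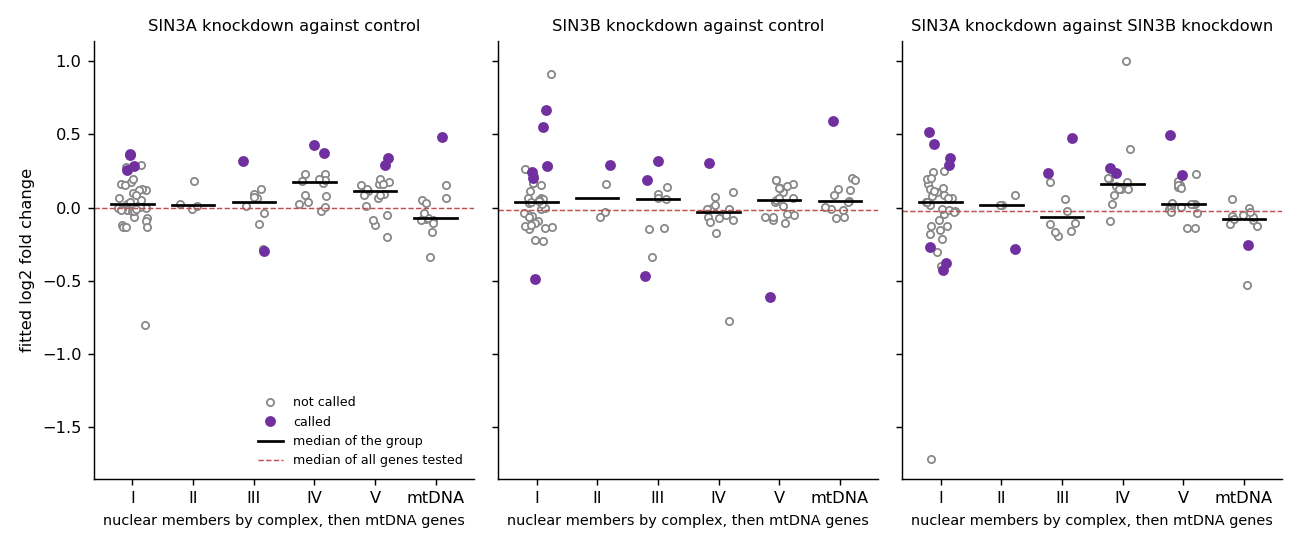
Fitted log2 fold change (vertical axis) of each tested member in 3 comparisons, nuclear members by complex and then the mitochondrial DNA genes; filled points were called, black bars are group medians and the dashed line is the median of all genes tested. The points far from 0 that were not called, such as NDUFV2 and COX6B2, are genes near the floor of counts.

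Among the 13 mitochondrial genes, MT-ND6 alone was called against control in the fit of all 9 libraries. MT-ND6, a membrane subunit of complex I at chrM:14149-14673 (GRCh38), is the single protein-coding gene on the light strand. Its level was 108, 122 and 111 CPM in control, 127, 144 and 205 in SIN3A knockdown, and 165, 174 and 175 in SIN3B knockdown. All 6 knockdown libraries lay above all 3 controls. The log2 fold change was 0.48 ± 0.13 in SIN3A knockdown (edgeR adjusted p = 0.0117) and 0.59 ± 0.13 in SIN3B knockdown (edgeR adjusted p = 0.00284). Without SIN3A knockdown replicate 1 the first value was 0.64, without replicate 3 it was 0.25 (edgeR adjusted p = 0.0236), and with limma on FPKM it was not called (adjusted p up to 0.0718). The knockdowns were not called different from each other (-0.11 ± 0.13, edgeR adjusted p = 0.569). Whether counting used strand is not given in the sources used here, so reads of MT-ND6 and of heavy-strand transcripts across it cannot be told apart.

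The gene next to it on the other strand, MT-ND5, a proton-pumping subunit of complex I, had one library far from the others. MT-ND5 measured 5887, 6454 and 6093 CPM in control, 3106, 6275 and 5180 in SIN3A knockdown, and 7374, 6161 and 7427 in SIN3B knockdown. SIN3A knockdown replicate 1 lay lowest, at 3.74% of the mitochondrial set against 6.30% to 8.55% elsewhere. MT-ND5 was not called in SIN3A knockdown (-0.34 ± 0.19, edgeR adjusted p = 0.249), SIN3B knockdown (0.19 ± 0.19, edgeR adjusted p = 0.571) or between them (-0.53 ± 0.19, edgeR adjusted p = 0.0689). MT-ND4L, a small membrane subunit, was lower in SIN3A than in SIN3B knockdown (956 ± 155 against 1139 ± 44.1 CPM, log2 -0.25 ± 0.09, edgeR adjusted p = 0.0377). That call ended without any 1 of 7 libraries, those of control, those of SIN3B knockdown and SIN3A knockdown replicate 1 (edgeR adjusted p up to 0.147), and without the last the value was -0.12.

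MT-ND3 measured 1306, 1390 and 1291 CPM in control and 1519, 1643 and 1429 in SIN3B knockdown. Its groups did not overlap, but it was not called (0.20 ± 0.08, edgeR adjusted p = 0.0565). The cytochrome c oxidase subunits MT-CO1, MT-CO2 and MT-CO3, the ATP synthase subunits MT-ATP6 and MT-ATP8, MT-CYB of complex III, and MT-ND1, MT-ND2 and MT-ND4 were called in neither knockdown, with log2 fold changes from -0.10 (MT-ATP6, SIN3A knockdown) to 0.12 (MT-ND1, SIN3B knockdown). In each of these genes both knockdowns overlapped control. MT-ND1 was called higher in SIN3A knockdown once replicate 1 was left out (0.18, edgeR adjusted p = 0.0304). Of the ribosomal RNAs, MT-RNR1 gave -0.02 ± 0.08 and -0.01 ± 0.08, and MT-RNR2 gave 0.13 ± 0.08 and 0.12 ± 0.08, in SIN3A and SIN3B knockdown, and neither was called. Nuclear copies share sequence with these genes, and MTATP6P1 alone stood at 1818 ± 99.8 CPM in control, so reads may be split between copies.

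**Figure D4:**
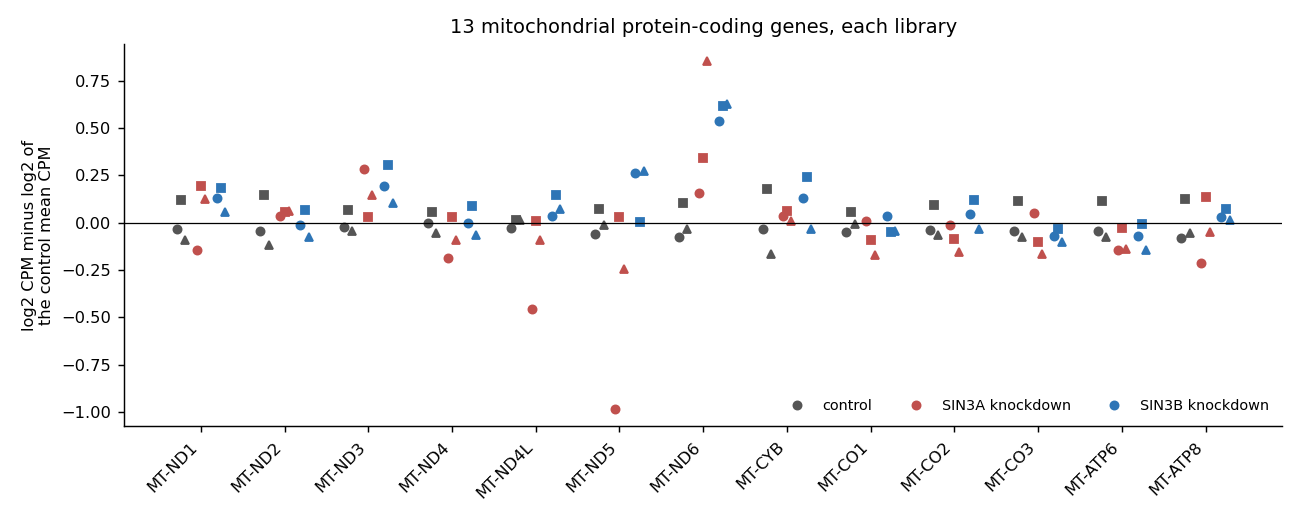
Each library's level of the 13 mitochondrial protein-coding genes, as log2 CPM minus log2 of the control mean CPM; circles, squares and triangles are replicates 1, 2 and 3 and colours are groups. MT-ND6 lies above the controls in all 6 knockdown libraries, and MT-ND5 and MT-ND4L are lowest in SIN3A knockdown replicate 1.

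Complex I takes electrons from NADH. In SIN3A knockdown 4 of its 37 tested nuclear members rose (NDUFA2, NDUFA5, NDUFA6 and NDUFB10), and in SIN3B knockdown 5 rose (NDUFA5, NDUFC2, NDUFC1, NDUFS1 and NDUFA10) and NDUFA13 fell. NDUFA5, an accessory subunit of the matrix arm, was the largest rise of any called member. It measured 44.2, 37.4 and 45.5 CPM in control, 56.7, 43.0 and 63.6 in SIN3A knockdown, and 67.6, 66.6 and 67.2 in SIN3B knockdown. The SIN3B libraries lay above all others, while SIN3A knockdown overlapped control. Log2 fold changes were 0.67 ± 0.11 in SIN3B knockdown (edgeR adjusted p = 0.000299) and 0.36 ± 0.12 in SIN3A knockdown (edgeR adjusted p = 0.0281). The second call ended without control replicate 1 or 2 or SIN3A knockdown replicate 1 or 3 (edgeR adjusted p up to 0.167), and without the last the value was 0.24.

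NDUFC2, a membrane arm subunit that also overlaps a readthrough gene, measured 22.7, 19.6 and 22.0 CPM in control, 22.4, 16.6 and 30.9 in SIN3A knockdown, and 31.8, 32.6 and 29.7 in SIN3B knockdown. It rose in SIN3B knockdown by a log2 of 0.55 ± 0.16 (edgeR adjusted p = 0.0137), and the SIN3A libraries ran from below control to the level of SIN3B knockdown. NDUFS1, the large iron-sulfur subunit of the NADH module, measured 118, 122 and 127 CPM in control and 149, 134 and 152 in SIN3B knockdown, without overlap. It rose by a log2 of 0.25 ± 0.07 (edgeR adjusted p = 0.0135). NDUFC1 (0.29 ± 0.09, edgeR adjusted p = 0.0325) and NDUFA10 (0.21 ± 0.07, edgeR adjusted p = 0.0296) rose too. NDUFA10 falls outside the naming rule and was chosen after its values were seen. Exon bases of NDUFC2 (16.3%), NDUFC1 (18.5%) and NDUFA13 (21.0%) overlap another gene, so their counts are less certain.

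NDUFA13, an accessory subunit also known as GRIM-19, measured 17.2, 17.7 and 12.6 CPM in control, 17.3, 16.3 and 14.9 in SIN3A knockdown, and 11.2, 11.2 and 11.5 in SIN3B knockdown. Every SIN3B library lay below the other 6, and it fell by 0.49 ± 0.14 on the log2 scale (edgeR adjusted p = 0.0172). Single libraries left out ended the SIN3B calls of NDUFA13 (control replicate 1 or 2 or SIN3B replicate 2, edgeR adjusted p up to 0.0874), NDUFC2 (control replicate 2 or SIN3B replicate 1 or 2, up to 0.0913), and NDUFS1 (control replicate 1 or 2 or SIN3B replicate 1 or 3, up to 0.0895). NDUFC1 (up to 0.152) and NDUFA10 (up to 0.165) lost theirs without any 1 of the 6 libraries of control and SIN3B knockdown.

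NDUFA6 measured 78.2, 76.4 and 82.4 CPM in control, 108, 97.0 and 82.8 in SIN3A knockdown, and 78.4, 74.2 and 75.6 in SIN3B knockdown, and NDUFB10 measured 219, 222 and 215, then 300.3, 249 and 236, then 218, 208 and 214. In both genes SIN3A knockdown replicate 1 was the highest and replicate 3 came closest to control. NDUFA6 gave 0.28 ± 0.09 (edgeR adjusted p = 0.0247), NDUFB10 gave 0.26 ± 0.08 (edgeR adjusted p = 0.0198) and NDUFA2 gave 0.36 ± 0.11 (edgeR adjusted p = 0.0184). Without SIN3A knockdown replicate 1, NDUFB10 gave 0.16 and stayed called (edgeR adjusted p = 0.0247), while NDUFA6 and NDUFA2 were not called. These 2 calls also ended without SIN3A knockdown replicate 2, without control replicate 1, and without control replicate 2 (NDUFA6) or 3 (NDUFA2), and that of NDUFB10 without any 1 control library (edgeR adjusted p up to 0.0964). With upper-quartile scaling none of NDUFA2, NDUFA5, NDUFA6 and NDUFB10 was called in SIN3A knockdown. Between the knockdowns, NDUFA6 (0.34 ± 0.09), NDUFB10 (0.29 ± 0.08, and 0.19 without SIN3A knockdown replicate 1), NDUFB1 (0.44 ± 0.11) and NDUFA13 (0.51 ± 0.14) were higher in SIN3A knockdown, and NDUFC1, NDUFC2 and NDUFS1 lower, at log2 -0.38, -0.43 and -0.27 (edgeR adjusted p up to 0.0471). The difference in NDUFC2 rested on few libraries, with -0.23 (edgeR adjusted p = 0.251) without SIN3A knockdown replicate 2 and -0.69 without replicate 3, and the call held only in that last of the 9. The NDUFS1 difference was lost without SIN3B knockdown replicate 3 (edgeR adjusted p = 0.0531).

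Complex II, succinate dehydrogenase, also works in the citric acid cycle. SDHD, a membrane anchor subunit, measured 41.0, 33.2 and 36.9 CPM in control, 39.0, 34.3 and 38.7 in SIN3A knockdown, and 46.2, 46.4 and 43.2 in SIN3B knockdown. SIN3B knockdown lay above the other groups, by a log2 of 0.29 ± 0.10 over control (edgeR adjusted p = 0.0385) and with SIN3A knockdown 0.28 ± 0.10 below it (log2 -0.28, edgeR adjusted p = 0.0419). The first call ended without control replicate 2 or 3 or any SIN3B library (edgeR adjusted p up to 0.232), and the second without those or SIN3A knockdown replicate 2 (up to 0.155). The catalytic flavoprotein SDHA gave 0.18 ± 0.07 and 0.16 ± 0.07 in SIN3A and SIN3B knockdown (edgeR adjusted p = 0.085 and 0.128). SDHB and SDHC lay between -0.06 and 0.03.

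In complex III, which passes electrons from ubiquinol to cytochrome c, members moved both ways. UQCR11, the smallest accessory subunit, measured 40.7, 44.1 and 40.6 CPM in control, 48.8, 42.3 and 35.3 in SIN3A knockdown, and 32.0, 29.5 and 29.1 in SIN3B knockdown. All SIN3B libraries lay below the other 6. It fell by 0.47 ± 0.11 on the log2 scale against control (edgeR adjusted p = 0.0038), and SIN3A knockdown was 0.48 ± 0.11 above SIN3B knockdown (edgeR adjusted p = 0.00272). UQCRFS1, the Rieske iron-sulfur protein, measured 79.2, 86.9 and 80.8 CPM in control and 104, 95.8 and 109 in SIN3B knockdown, a rise of 0.32 ± 0.09 (edgeR adjusted p = 0.0132). That call ended without control replicate 1 or 3 or SIN3B replicate 3 (edgeR adjusted p up to 0.0811). The core protein UQCRC2 rose by 0.19 ± 0.07 (edgeR adjusted p = 0.0452), a call lost without control replicate 1 or 2 or any SIN3B library (edgeR adjusted p up to 0.224).

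CYC1, the cytochrome c1 heme subunit, was the one nuclear member called lower in SIN3A knockdown with all 9 libraries and TMM scaling, where 8 were without SIN3A knockdown replicate 1 and 2 with upper-quartile scaling. It measured 182, 188 and 181 CPM in control, 156, 153 and 139 in SIN3A knockdown, and 171, 171 and 160 in SIN3B knockdown. The 3 groups did not overlap, and SIN3B knockdown lay between the others. CYC1 fell by 0.30 ± 0.07 in SIN3A knockdown (edgeR adjusted p = 0.00309), with -0.31 without replicate 1, and gave -0.14 ± 0.07 in SIN3B knockdown (edgeR adjusted p = 0.156). UQCRH, the hinge protein, measured 214, 222 and 227 CPM in control and 314, 263 and 248 in SIN3A knockdown, a rise of 0.32 ± 0.08 (edgeR adjusted p = 0.00563) that was 0.23 without replicate 1 (edgeR adjusted p = 0.00331). Its near-copy UQCRHL may share reads with it, so the split between them is uncertain. Between the knockdowns UQCRC1, a core protein, differed by 0.24 ± 0.09 (edgeR adjusted p = 0.0458), which held without SIN3A knockdown replicate 3 and was lost without any 1 of the other 8 libraries (edgeR adjusted p up to 0.188), with 0.12 without SIN3A knockdown replicate 1.

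Complex IV, cytochrome c oxidase, had the highest nuclear median in SIN3A knockdown, 0.17 over 14 tested members, with 2 called. Complex IV members summed to 0.224%, 0.186% and 0.172% of counts in SIN3A knockdown replicates 1, 2 and 3, against 0.177% ± 0.00260 in control, so the third lay at or below control. COX5B, a zinc-binding subunit, measured 162, 167 and 157 CPM in control, 252, 195 and 183 in SIN3A knockdown, and 174, 174 and 176 in SIN3B knockdown. COX5B rose in SIN3A knockdown by 0.37 ± 0.09 (edgeR adjusted p = 0.00507), and by 0.24 without replicate 1 (edgeR adjusted p = 0.00402). It was above control in SIN3B knockdown too, without a call (0.10 ± 0.09, edgeR adjusted p = 0.462).

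COX7A2L, a subunit-like protein that joins complexes III and IV into supercomplexes, measured 93.9, 83.8 and 102 CPM in control, 139, 121 and 116 in SIN3A knockdown, and 121, 116 and 108 in SIN3B knockdown. Both knockdowns lay above control. Its log2 fold changes were 0.43 ± 0.09 (edgeR adjusted p = 0.00134, with 0.36 without SIN3A knockdown replicate 1) and 0.30 ± 0.09 (edgeR adjusted p = 0.0131), the second lost without control replicate 2 or SIN3B replicate 1 or 2 (edgeR adjusted p up to 0.114). Between the knockdowns COX5B (0.27 ± 0.09) and COX4I1 (0.23 ± 0.08), a core nuclear subunit, were higher in SIN3A knockdown (edgeR adjusted p = 0.0303 and 0.043). Without SIN3A knockdown replicate 1 neither was called, at 0.12 and 0.11 (edgeR adjusted p = 0.105 and 0.123), and both were lost as well without SIN3B replicate 2 or 3, COX5B without SIN3B replicate 1 and COX4I1 without control replicate 1 or 3 (edgeR adjusted p up to 0.171).

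The fall with the lowest adjusted p among nuclear members was in complex V. ATP5MC1, one of the genes for the proton-carrying c-ring subunit of ATP synthase, measured 151, 163 and 150 CPM in control, 154, 141 and 134 in SIN3A knockdown, and 97.8, 101 and 105 in SIN3B knockdown. The SIN3B libraries lay below all 6 others. ATP5MC1 fell by 0.61 ± 0.07 on the log2 scale (edgeR adjusted p = 4.72e-06) and was 0.50 ± 0.07 higher in SIN3A than in SIN3B knockdown (edgeR adjusted p = 3.01e-05). Its paralogs ATP5MC2 and ATP5MC3, which encode the same mature subunit, gave log2 fold changes of -0.05 each in SIN3B knockdown and were not called (edgeR adjusted p = 0.755 and 0.742). Whether these 3 genes differ from each other in response was not tested. ATP5MPL, a small accessory subunit, measured 111, 115 and 113 CPM in control, 155, 133 and 126 in SIN3A knockdown, and 125, 119 and 128 in SIN3B knockdown. It rose by 0.29 ± 0.08 in SIN3A knockdown (edgeR adjusted p = 0.00971), without overlap, and by 0.22 without replicate 1 (edgeR adjusted p = 0.0131).

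ATP5MG, the g subunit, rose by 0.34 ± 0.11 in SIN3A knockdown (edgeR adjusted p = 0.0236), although 1 of its SIN3A libraries, at 67.9 CPM, lay within the control range of 59.0 to 70.8. That call ended without control replicate 1 or 2 or SIN3A knockdown replicate 1 (edgeR adjusted p up to 0.127), and with upper-quartile scaling. ATP5F1B, the catalytic subunit, measured 861, 896 and 887 CPM in control, 1078, 937 and 866 in SIN3A knockdown, and 840, 817 and 807 in SIN3B knockdown. The knockdowns differed by 0.23 ± 0.07 (edgeR adjusted p = 0.0266). Without SIN3A knockdown replicate 1 this was 0.14 and still called (edgeR adjusted p = 0.0182), and it was lost without SIN3B replicate 2 or 3 (edgeR adjusted p up to 0.104).

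**Figure D5:**
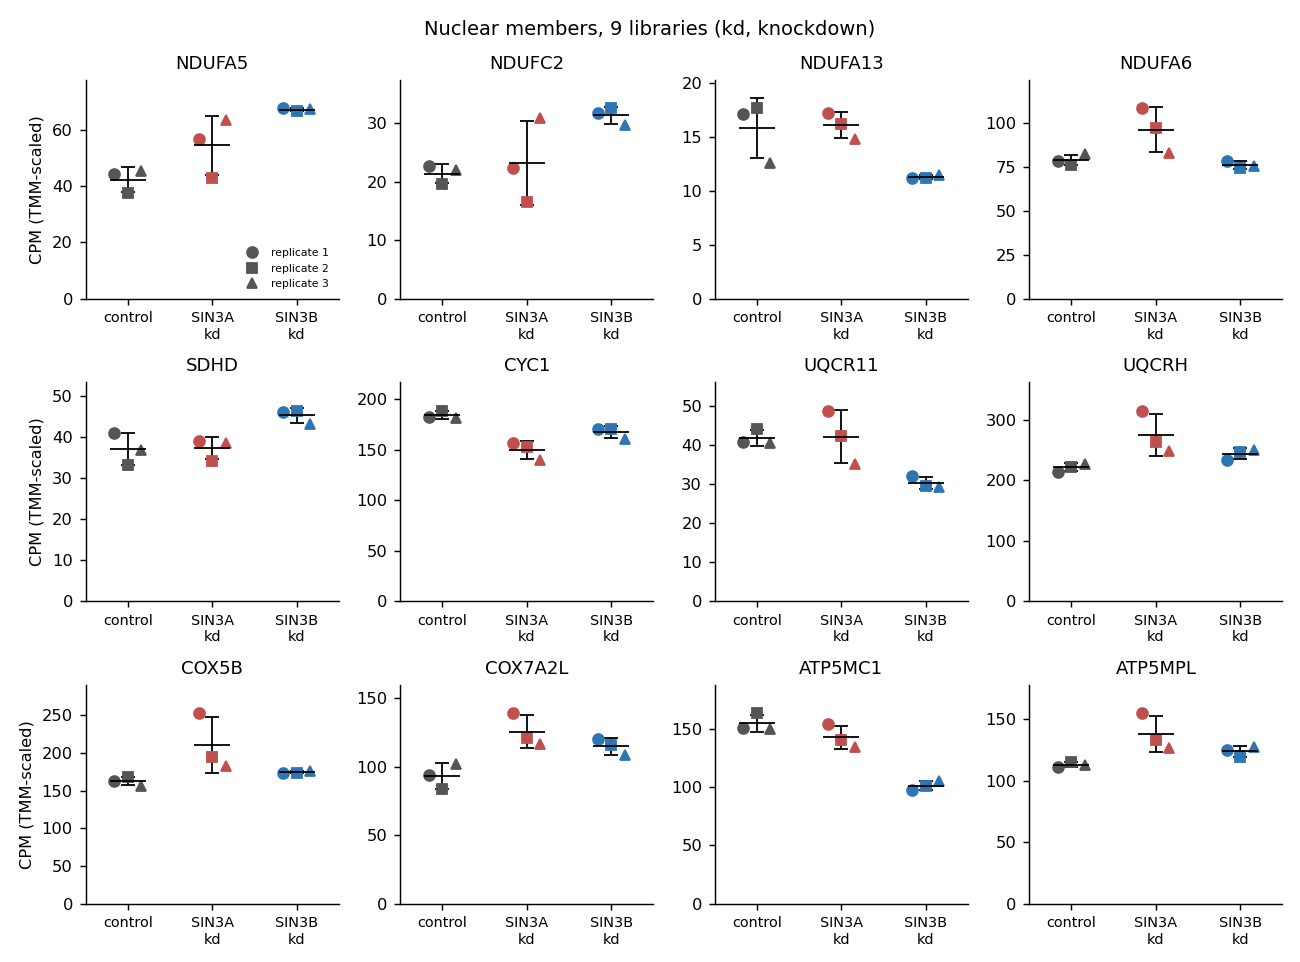
Levels of 12 called nuclear members in TMM-scaled CPM (vertical axes from 0); circles, squares and triangles are replicates 1, 2 and 3, and bars the mean ± SD of 3 libraries. ATP5MC1, UQCR11 and NDUFA13 are lowest in all 3 SIN3B knockdown libraries, while UQCRH, COX5B and NDUFA6 are highest in SIN3A knockdown replicate 1.

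Of the 28 named genes called in SIN3A knockdown against control, those of the lists described further on included, 24 were also called without SIN3A knockdown replicate 1. The 4 lost, NDUFA2, NDUFA5, NDUFA6 and ATP5MG, were all among the 10 nuclear members called. Between the knockdowns 32 of 39 were also called without that library, and the 7 lost were MT-ND4L, NDUFC2, UQCRC1, COX4I1, COX5B and the list genes PPRC1 and GABPA. Of 84 tested nuclear members, 60 were called in none of the comparisons and 2, NDUFA5 and COX7A2L, were called higher in both knockdowns. The 3 called lower in SIN3B knockdown (ATP5MC1, NDUFA13 and UQCR11) were all higher in SIN3A than in SIN3B knockdown. Groups did not overlap in 13 nuclear members (15.5%) for SIN3A knockdown against control, where the share of all genes was 36.4%. In SIN3B knockdown it was 34 members (40.5%), 25 above and 9 below, beside 43.0% of all genes, and between the knockdowns 19 (22.6%), beside 39.3%.

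The 3′ UTRs were searched for 7-base sequences that an earlier search of these same libraries had found in fallen genes, so counts on them are no independent evidence. AGGTCTA or GGTCTAA, linked there to SIN3A siRNA, stood in 2 of 84 nuclear members (2.38%), against 7.65% of 13268 protein-coding genes. ACAGCCT or CAGCCTT, linked to SIN3B siRNA, stood in 12 of 84 (14.3%), against 24.5%. Members have short 3′ UTRs, with a median of 226.5 bases against 1085. Of the 3 members that fell in SIN3B knockdown, UQCR11 held 1 site, printed here because it is the one such case, and ATP5MC1 and NDUFA13 held none. NDUFA10, SDHD and UQCRFS1, which rose, held 1 each. CYC1, lower in SIN3A knockdown, held neither SIN3A sequence. Capitals mark the match, in bases 761 to 785 of the 1072-base 3′ UTR of the principal GENCODE 29 transcript on GRCh38.
UQCR11: acttccgccACAGCCTgtttatcaa

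Of 19 genes of mitochondrial RNA processing and stability, 3 rose and 2 fell in SIN3A knockdown, and 6 rose and 3 fell in SIN3B knockdown (26.3% and 47.4% called, beside 23.0% and 23.6% of all genes tested). SLIRP, the partner of LRPPRC in stabilising mitochondrial mRNA, measured 68.2, 75.9 and 71.1 CPM in control, 90.2, 69.0 and 66.0 in SIN3A knockdown, and 34.3, 33.6 and 34.1 in SIN3B knockdown. SLIRP fell by 1.08 ± 0.10 in SIN3B knockdown (edgeR adjusted p = 4.76e-07) and gave 0.06 ± 0.10 in SIN3A knockdown (edgeR adjusted p = 0.71). LRPPRC itself rose in both, by 0.34 ± 0.07 and 0.22 ± 0.07 (edgeR adjusted p = 0.00172 and 0.026), and the second call was lost without any 1 control library or SIN3B replicate 2 or 3 (edgeR adjusted p up to 0.152).

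ELAC2, which cuts the 3′ ends of mitochondrial tRNAs, measured 182, 176 and 184 CPM in control, 97.6, 96.3 and 94.8 in SIN3A knockdown, and 203, 188 and 187 in SIN3B knockdown. ELAC2 fell by 0.91 ± 0.07 in SIN3A knockdown (edgeR adjusted p = 1.55e-08), with no overlap, and its 3′ UTR held GGTCTAA once. TBRG4 of this list and the assembly factor TTC19, also called lower there, held 1 sequence linked to SIN3A siRNA each. The other list genes holding one (LYRM7, COA4, ATPAF2, PPARGC1B, MRPL50, MRPS35 and MRPL42) were not called in SIN3A knockdown. Such matches are no independent evidence. HSD17B10, a subunit of mitochondrial RNase P that cuts the 5′ ends, measured 136, 153 and 136 CPM in control, 222, 185 and 160 in SIN3A knockdown, and 104, 101 and 104 in SIN3B knockdown. It moved in opposite directions, up by 0.42 ± 0.09 in SIN3A knockdown (edgeR adjusted p = 0.00257, with 0.30 without replicate 1) and down with a log2 of -0.46 ± 0.09 in SIN3B knockdown (edgeR adjusted p = 0.00105), and the knockdowns differed by 0.87 ± 0.09 (edgeR adjusted p = 6.05e-07). TRMT10C, another RNase P subunit, rose by 0.40 ± 0.10 in SIN3B knockdown (edgeR adjusted p = 0.00507). FASTKD5, needed for processing of mRNAs not flanked by tRNAs, rose by 0.57 ± 0.10 in SIN3A knockdown (edgeR adjusted p = 0.000693). The part of these genes in the levels of the 13 mitochondrial transcripts was not tested.

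Of 15 genes of mitochondrial DNA maintenance and transcription, 2 (13.3%, beside 23.0% of all genes tested) rose in SIN3A knockdown, TOP1MT, the mitochondrial topoisomerase (0.49 ± 0.09, edgeR adjusted p = 0.000423), and MTERF1, a transcription terminator (0.61 ± 0.14, edgeR adjusted p = 0.00381). In SIN3B knockdown 3 (20%, beside 23.6%) rose, TFAM, which packages and transcribes mitochondrial DNA (0.28 ± 0.08, edgeR adjusted p = 0.017), TFB2M, its partner in initiation (0.51 ± 0.15, edgeR adjusted p = 0.018), and MTERF4 (0.30, edgeR adjusted p = 0.0169). The call of TFAM was lost without control replicate 2 or 3 or SIN3B replicate 1 or 2, that of TFB2M without control replicate 1 or 2 or SIN3B replicate 1, and that of MTERF4 without control replicate 1 or 3 or SIN3B replicate 1 or 3 (edgeR adjusted p up to 0.128). POLRMT, the polymerase, gave -0.10 ± 0.07 and 0.03 ± 0.07, not called.

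Of 10 nuclear regulators, 3 rose and 1 fell in SIN3A knockdown (40.0% called, beside 23.0% of all genes tested) and 4 rose and 1 fell in SIN3B knockdown (50%, beside 23.6%). ESRRA, a nuclear receptor that regulates mitochondrial genes, measured 31.9, 30.1 and 33.0 CPM in control, 47.3, 49.6 and 44.8 in SIN3A knockdown, and 25.7, 22.4 and 25.1 in SIN3B knockdown. The 3 groups did not overlap. ESRRA rose by 0.58 ± 0.10 in SIN3A knockdown (edgeR adjusted p = 0.00031) and gave -0.38 ± 0.10 in SIN3B knockdown (edgeR adjusted p = 0.00859), the latter -0.32 without SIN3B replicate 2 and then not called (edgeR adjusted p = 0.064). Its 3′ UTR holds 1 of the sequences linked to SIN3B siRNA. GABPA, the DNA-binding subunit of GABP, rose in SIN3B knockdown from 28.4 ± 1.60 to 42.4 ± 1.67 CPM (log2 0.58 ± 0.13, edgeR adjusted p = 0.003), and CREB1 rose in both (0.43 ± 0.09 and 0.47 ± 0.09, edgeR adjusted p = 0.00261 and 0.00106). PPRC1, a PGC-1-related coactivator, fell by 0.27 ± 0.08 in SIN3A knockdown (edgeR adjusted p = 0.0136), with -0.17 without SIN3A replicate 1 and no call without control replicate 3 (edgeR adjusted p = 0.0586).

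Assembly factors, 48 of 50 tested, gave 2 higher and 3 lower in SIN3A knockdown (10.4% called, beside 23.0% of all genes tested) and 8 higher and 2 lower in SIN3B knockdown (20.8%, beside 23.6%). SDHAF2, which inserts the flavin of SDHA, rose in SIN3A knockdown from 5.15 ± 0.690 to 9.46 ± 1.36 CPM (log2 0.87 ± 0.19, edgeR adjusted p = 0.0025). In SIN3B knockdown the largest rises were NUBPL, which supplies complex I with iron-sulfur clusters (0.71 ± 0.13, edgeR adjusted p = 0.000499), COX20, a chaperone of MT-CO2 (0.64 ± 0.12, edgeR adjusted p = 0.000842), and LYRM7, a chaperone of UQCRFS1 (0.54 ± 0.13, edgeR adjusted p = 0.00423). Their subunit partners gave 0.05 for MT-CO2 and 0.32 for UQCRFS1 in the same comparison.

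All 78 mitochondrial ribosomal proteins were tested, and 5 rose and 5 fell in each knockdown (12.8% called, beside 23.0% and 23.6% of all genes tested). MRPL17 rose in SIN3A knockdown (0.43 ± 0.08, edgeR adjusted p = 0.000418), and MRPS26 and MRPS27 were lower in SIN3B knockdown (-0.77 ± 0.10 and -0.50 ± 0.07, edgeR adjusted p = 2.31e-05 and 4.71e-05). The 3′ UTRs of both of the latter hold sequences linked to SIN3B siRNA, as do those of ESRRA, COQ10A, NEFM and INA, also lower. TFAM, PDE12, MTPAP, COX19, COA7 and MRPL45, called higher in SIN3B knockdown, hold them too, and the other list genes holding them were not called. The sequences came from fallen genes of these same libraries, so such matches are no independent evidence. Of 14 electron carrier genes, 1 rose and 1 fell in SIN3A knockdown (14.3% called, beside 23.0%) and 3 rose and 3 fell in SIN3B knockdown (42.9%, beside 23.6%). COQ10B, a ubiquinone-binding protein, rose in both (0.68 ± 0.14 and 0.67 ± 0.14, edgeR adjusted p = 0.00218 and 0.00206). COQ2, which attaches the side chain of ubiquinone, rose in SIN3B knockdown (0.61 ± 0.10, edgeR adjusted p = 0.000245). COQ9, another biosynthesis factor, fell by 0.37 ± 0.08 in SIN3A knockdown (edgeR adjusted p = 0.0035), and COQ10A by 0.57 ± 0.12 in SIN3B knockdown (edgeR adjusted p = 0.00136).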

How the data were processed

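RNA-seq of 9 HEK293T libraries was analysed, 3 per group. The deposited counts per gene and FPKM values were made by the authors with Trimmomatic 0.36, HISAT2 2.1.0, HTSeq, DESeq2 1.20.0 and GRCh38, per the submitters' processing notes. The annotation release is not given in the sources used here, and all 58734 gene IDs match GENCODE 29. About 98% of counts above 0 are multiples of 4. Counts were fitted with edgeR 4.0.16 (R 4.3.3): filterByExpr (minimum count 10, total 15), TMM scaling, glmQLFit with robust = TRUE over all 9 libraries, group as the only term and 6 residual degrees of freedom. p-values were adjusted over 16686 genes. The script was tested on simulated data. DESeq2 1.42.0, limma 3.58.1 on log2(FPKM + 1) or log2(FPKM + 0.1), other scalings, no filter, a replicate block, counts divided by 4 and each library left out were alternatives. Sets were described by counts, medians and sums, with no set test.

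Members and lists were chosen with earlier results of these data known. Named were the targets, the 13 mitochondrial genes, up to 2 called nuclear members per complex, direction and comparison by adjusted p, called members at a log2 of at least 0.5, tissue isoforms, and up to 3 called genes per related list and comparison with control. Motifs were searched in RefSeq promoters and 3′ UTR sequences in GENCODE 29 transcripts. The deposited FPKM were used in limma alone. Figures were drawn with matplotlib.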

Additional observations from a re-analysis of the deposited data

How the results depend on the processing

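Among the named genes, which include every member called with all 9 libraries, no direction of a call reversed under any alternative run. Other members called only in an alternative run were not checked for this. Of 39 calls of members, 15 held in every alternative, 17 held with each library left out in turn, and 22 were lost without at least 1 library. Leaving out 1 library, nuclear members called ranged from 5 to 22 (SIN3A knockdown), 4 to 18 (SIN3B knockdown) and 7 to 30 (between knockdowns), in place of 10, 12 and 14, and mitochondrial members from 1 to 3, 1 to 2 and 0 to 2, in place of 1 each. In those fits 15.3% to 22.8%, 15.5% to 27.5% and 19.7% to 27.9% of all genes were called. With upper-quartile scaling 6 nuclear members were called in SIN3A knockdown, and 2 mitochondrial members between the knockdowns. Upper-quartile scaling also changed the split of all calls from 2029 higher and 1807 lower to 1352 and 2313 in SIN3A knockdown, and from 2001 and 1938 to 1693 and 2286 in SIN3B knockdown. The fits without a filter, with DESeq2, and without the robust option (added after seeing the data) each called 2 mitochondrial members in SIN3B knockdown. limma on log2(FPKM + 1) called 5, 5 and 7 nuclear members in the 3 comparisons, and on log2(FPKM + 0.1) 5, 5 and 8. With either, limma called 0 mitochondrial members in SIN3A knockdown (1 at an unadjusted p under 0.05) and 0 between the knockdowns (2 unadjusted), where edgeR and DESeq2 called 1 each. With only the 6 libraries compared, edgeR called 26 nuclear members (20 higher, 6 lower, among them all 12 of the main result, in a fit where 33.0% of all genes were called in place of 23.6%) and 2 mitochondrial members in SIN3B knockdown, and 8 nuclear and 0 mitochondrial members between the knockdowns (2 unadjusted). Counts divided by 4 and the fit without the robust option each called 2 mitochondrial members between the knockdowns. Cause was not tested for any of these. As a percent of counts outside mitochondrial genes, the nuclear set took 1.198% in control and 1.21% in SIN3B knockdown, in place of 1.08% and 1.09%, since its denominator is smaller. Leaving out 1 library moved the nuclear share in SIN3A knockdown between 1.06% and 1.17%, and the ratio between 7.19 and 8.01.

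Replicate numbers did not pair the libraries: deviations of same-numbered libraries correlated between -0.03 and 0.04. With a replicate block, 10, 10 and 15 nuclear members and 1, 1 and 2 mitochondrial members were called. The planned use of deposited FPKM for the set shares was not run, because the length implied by count and FPKM was unrelated to exon length (Spearman's rho 0.0074 across 7870 genes, which are not independent). Depth limits the genes near the floor, such as NDUFV2, NDUFA7 and COX6B2.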
